A study of Mus musculus with 8 samples.

Results

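Small leucine-rich proteoglycans are secreted proteins of the extracellular matrix, and the 10 genes described here (Dcn, Bgn, Aspn, Lum, Fmod, Prelp, Kera, Omd, Ogn and Podn) are members of this family, chosen by symbol from the 22880 gene identifiers that were counted in each mouse. RNA was sequenced from the soleus, a calf muscle rich in slow fibres, of 4 control mice (Dnm2 +/+) and 4 heterozygous Dnm2 +/K562E mice, all males of 2 months on a C57BL/6 background. The Dnm2 +/K562E mice carry in 1 allele of dynamin 2, a GTPase that cuts vesicles from membranes, the point mutation K562E, known from human Charcot-Marie-Tooth neuropathy. The mutation was introduced into the endogenous locus, and a loxP site left by the targeting remained in an intron of the mutant allele. Control animals of the colony were age-matched or littermate mice, and each library came from 1 mouse.

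The core proteins of this family fold into a curved stack of leucine-rich repeats, and most of them bind collagen fibrils and limit how thick the fibrils grow. Several carry sugar chains: decorin and biglycan, the products of Dcn and Bgn, carry chondroitin or dermatan sulfate, whereas lumican, fibromodulin, keratocan and osteoadherin (Lum, Fmod, Kera and Omd) carry keratan sulfate. In muscle they are made mainly by fibroblasts between the fibres and by cells of the tendon, and decorin is known to bind TGF-beta and myostatin.

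The libraries held 33407430 to 48832814 counts per mouse, and a member had between 130 counts (Omd) and 21871 (Dcn) in the mouse where it was lowest. Levels are given as normalized CPM, CPM being the counts of a gene relative to the total of its library, scaled between libraries with the TMM method, and differences as log2 fold changes of Dnm2 +/K562E over control. Genotypes were compared with the quasi-likelihood test of edgeR over 14001 genes, and p-values were adjusted over all of these genes by the method of Benjamini and Hochberg (BH). A call required that the adjusted p was below 0.05 and that the log2 fold change reached 0.58 or -0.58. Myh7, which encodes the slow myosin heavy chain, stood at 6014 ± 263 CPM (SD, n = 4) in controls and 4193 ± 391 CPM (SD, n = 4) in Dnm2 +/K562E mice. Of the stretches of 31 bases in its transcripts, 27.9% also occur in other genes, most often in Myh6. The 6 slow muscle markers, of which Acta1 is an actin gene not particular to slow fibres, had a median log2 fold change of -0.52. Of these 6 genes, 1 was called lower, against 7.85% of all tested genes. The number was 0 without control 3, without Dnm2 +/K562E mouse 4 or with scaling by library size alone, and 2 without control 1. In these bulk samples a change in the number of cells of a type and a change in the RNA per cell cannot be told apart.

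All 10 members were higher in mean in Dnm2 +/K562E soleus, and 9 of them rose by the rule for a call, whereas 12.9% of all tested genes were called higher. Of the 10 members 0 were called lower, against 7.85% of all tested genes, and 0 lay lower in every mutant than in every control, against 20.5% of all tested genes. The log2 fold changes ran from 0.53 for Podn, the one member not called, to 1.92 for Aspn, with a median of 1.23 over the members and 0.01 over all tested genes. The adjusted p alone was under 0.05 for 10 of 10 members, which held for 22.2% of all tested genes in the higher direction. In 8 of the 10 genes every Dnm2 +/K562E mouse lay above every control, as in 20.6% of all tested genes, and the exceptions were Omd and Podn. Added together and without TMM scaling, the members took 0.173% ± 0.0380 (SD, n = 4) of all counts in controls and 0.464% ± 0.0615 (SD, n = 4) in Dnm2 +/K562E mice. With that scaling, their sum was 1497 to 2329 CPM in controls and 3884 to 4866 CPM in Dnm2 +/K562E mice.

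**Figure D1:**
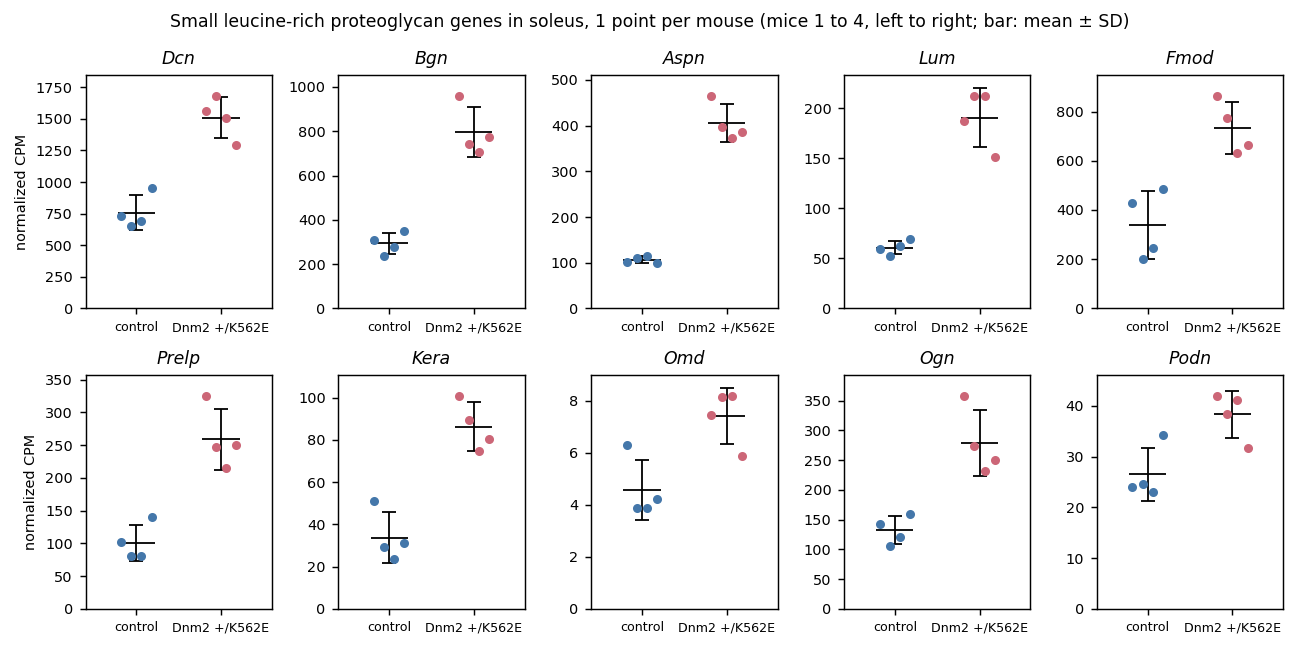
Normalized CPM of the 10 members in each mouse, with 1 point per mouse (4 controls, blue; 4 Dnm2 +/K562E mice, red) and bars for mean ± SD; each panel has its own axis from 0. The genotypes overlap in Omd and Podn and are apart in the other 8 genes.

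Of the class I genes, whose products resemble decorin, Dcn was the most abundant. Decorin, which coats collagen fibrils, had Dcn levels of 735, 649.5, 690.1 and 957 CPM in controls 1 to 4 and of 1558, 1682, 1503 and 1291 CPM in Dnm2 +/K562E mice 1 to 4. Control 4 was the highest control, and it remained well under the lowest Dnm2 +/K562E mouse. The log2 fold change of Dcn was 0.99 ± 0.12 (SE; BH-adjusted p = 9.69e-05 by edgeR). Biglycan, a close relative of decorin that also binds the sarcoglycans of the muscle membrane, had Bgn levels of 307, 239, 279 and 351 CPM in controls and of 959.7, 741, 708 and 775 CPM in Dnm2 +/K562E mice. The genotypes were apart, with Dnm2 +/K562E mouse 1 above the other mutants. Bgn rose by a log2 fold change of 1.44 ± 0.13 (SE; BH-adjusted p = 9.34e-06 by edgeR). Asporin differs from the other class I proteins by a run of aspartate residues and lacks their usual sugar chain. Aspn stood at 102, 110.4, 115 and 99.7 CPM in controls and at 465, 396, 373 and 385 CPM in Dnm2 +/K562E mice. The 4 controls lay close together, and the lowest mutant was more than 3 times as high as the highest control. The log2 fold change of 1.92 ± 0.08 (SE; BH-adjusted p = 1.54e-07 by edgeR) was the largest in the family and ranked 185th among the 14001 tested genes by size, and 11th by p-value among the genes with a higher mean.

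Class II holds the keratan sulfate proteoglycans and Prelp. Lumican, best known for the spacing of collagen fibrils in the cornea, had Lum levels of 59.2, 52.7, 61.9 and 69.3 CPM in controls and of 187, 212, 212 and 151 CPM in Dnm2 +/K562E mice. The lowest mutant was more than 2 times as high as the highest control, and the log2 fold change was 1.65 ± 0.12 (SE; BH-adjusted p = 2.50e-06 by edgeR). Fibromodulin, which modulates fibril assembly and is abundant in tendon, was the class II gene with the highest level and the widest spread among controls. Fmod stood at 429, 201, 244 and 485 CPM in controls and at 864, 774, 632 and 664 CPM in Dnm2 +/K562E mice. Controls 1 and 4 lay well above controls 2 and 3, and all 4 remained under every mutant. The log2 fold change of Fmod was 1.11 ± 0.25 (SE; BH-adjusted p = 0.00403 by edgeR) with a 95% interval of 0.57 to 1.65.

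Prelp encodes a protein that binds collagen and, through a stretch rich in arginine and proline, heparan sulfate chains. Prelp rose from 102, 80.7, 81.1 and 139 CPM in the 4 controls to 325, 246, 215 and 249.7 CPM in the 4 Dnm2 +/K562E mice, without overlap. Its log2 fold change was 1.36 ± 0.18 (SE; BH-adjusted p = 1.42e-04 by edgeR), and 9.0% of the 31-base stretches in its transcripts also occur in other genes. Kera encodes keratocan, a corneal proteoglycan that tendon also makes. It was counted at 51.0, 29.3, 23.4 and 31.2 CPM in controls and at 101, 89.6, 74.5 and 80.5 CPM in Dnm2 +/K562E mice, with control 1 above the other controls. The log2 fold change of Kera was 1.36 ± 0.20 (SE; BH-adjusted p = 3.25e-04 by edgeR). Osteoadherin is mainly known from bone, and Omd had the lowest level of the 10 genes, at 6.29, 3.86, 3.87 and 4.24 CPM in controls and 7.44, 8.13, 8.18 and 5.89 CPM in Dnm2 +/K562E mice. Control 1 lay above Dnm2 +/K562E mouse 4, so that the genotypes overlapped. Omd was called higher with a log2 fold change of 0.70 ± 0.18 (SE; BH-adjusted p = 0.00886 by edgeR) and 6.46% of its 31-base stretches are shared with other genes.

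Osteoglycin of class III, also called mimecan, had Ogn levels of 143, 106, 121 and 159 CPM in controls and of 358, 274, 232 and 249 CPM in Dnm2 +/K562E mice. The groups did not overlap, and the log2 fold change was 1.07 ± 0.15 (SE; BH-adjusted p = 2.11e-04 by edgeR). Podocan of class V also binds collagen. Podn stood at 24.0, 24.6, 23.0 and 34.2 CPM in controls and at 41.9, 38.4, 41.2 and 31.7 CPM in Dnm2 +/K562E mice. Control 4 lay apart from the other controls and above Dnm2 +/K562E mouse 4. With a log2 fold change of 0.53 ± 0.13 (SE; BH-adjusted p = 0.00733 by edgeR) Podn passed the adjusted p but not the fold threshold, and its 95% interval ran from 0.24 to 0.83. Without control 4 its log2 fold change was 0.67 and without Dnm2 +/K562E mouse 4 it was 0.61, and both values passed both thresholds.

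**Figure D2:**
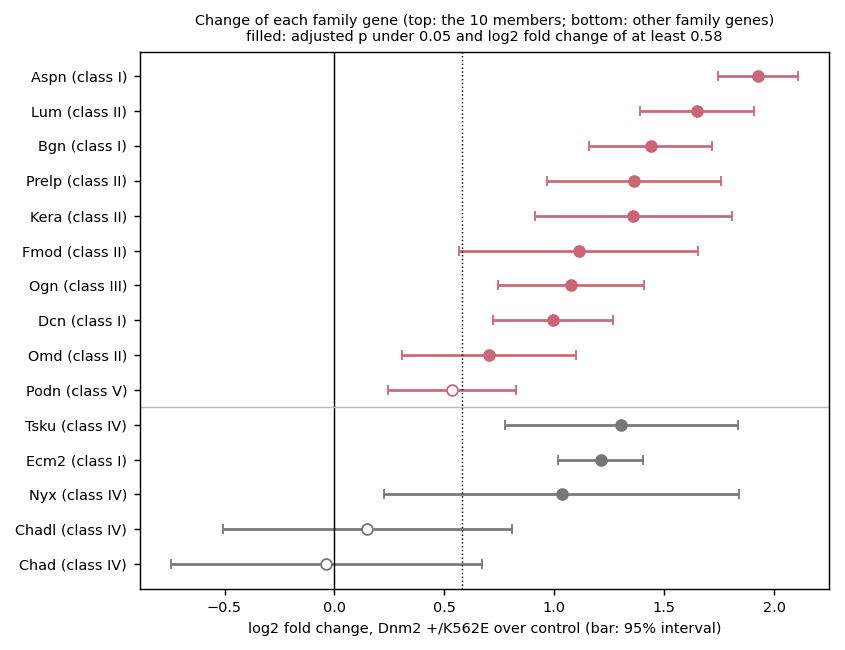
Log2 fold change (horizontal axis, Dnm2 +/K562E over control, n = 4 each) of the 10 members (top, red) and of 5 tested relatives (bottom, grey), with 95% intervals; filled points were called, and the dotted line marks 0.58. All 10 member intervals lie above 0, from Podn at 0.53 to Aspn at 1.92.

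The members tended to be high or low in the same mice. Among controls, mouse 4 was the highest for 7 of the 10 genes (Dcn, Bgn, Lum, Fmod, Prelp, Ogn and Podn) and mouse 2 the lowest for 7 genes. Aspn went the other way, with its lowest control value in mouse 4. Among Dnm2 +/K562E mice, mouse 1 was the highest for 7 genes (Bgn, Aspn, Fmod, Prelp, Kera, Ogn and Podn) and mouse 3 the lowest for 6. Mouse 3 was, however, the highest mutant for Lum and Omd, and mouse 2 for Dcn. Mouse 4 was the lowest mutant for Dcn, Lum, Omd and Podn. Leaving out any single mouse kept the 9 called members called.

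Levels of different genes were compared per exon length, as RPKM, the normalized CPM divided by the exon length in kilobases. In controls Dcn was the most abundant at 129.8 ± 23.5 RPKM (SD, n = 4), 287th of the 13955 tested genes with a length, followed by Fmod at 103 ± 41.8, Ogn at 51.5 ± 9.08, Bgn at 48.2 ± 7.70 and Aspn at 45.3 ± 3.03. Prelp at 27.9 ± 7.63, Lum at 24.8 ± 2.80 and Kera at 14.8 ± 5.25 RPKM came next. Podn and Omd were the least abundant, at 6.20 ± 1.22 and 2.03 ± 0.516 RPKM. Of the 9 neighbouring pairs in this order, 3 did not overlap over the controls, namely Aspn over Prelp, Kera over Podn and Podn over Omd. The order of Bgn over Aspn held in only 2 of 4 control mice.

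In Dnm2 +/K562E soleus Dcn (258 ± 28.0 RPKM, SD, n = 4) and Fmod (222 ± 32.1) were again first, and Aspn came next at 172 ± 17.6 RPKM. Bgn stood at 130.5 ± 18.5, Ogn at 108 ± 21.7, Lum at 77.9 ± 11.9 and Prelp at 71.6 ± 12.9 RPKM, with Kera at 37.9 ± 5.01, Podn at 8.97 ± 1.09 and Omd at 3.30 ± 0.475 RPKM below them. Here 5 of the 9 neighbouring pairs did not overlap, among them Aspn over Bgn. By this measure Dcn ranked 111th, Fmod 133rd and Aspn 173rd among the 13955 genes in Dnm2 +/K562E mice.

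The members were unequally represented in the 2 genotypes, a description for which no test and no comparison with other genes was made. Dcn took 28.8% ± 2.08 (SD, n = 4) of the summed RPKM of the 10 genes in controls and 23.8% ± 2.16 (SD, n = 4) in Dnm2 +/K562E mice, and all 4 mutants were below all 4 controls. Aspn took 10.4% ± 2.59 in controls, from 7.53% in mouse 4 to 12.9% in mouse 2, and 15.8% ± 0.673 in Dnm2 +/K562E mice, all of them above the controls. Podn took 1.38% ± 0.178 in controls and 0.825% ± 0.0917 in Dnm2 +/K562E mice, also without overlap. The shares of the other 7 genes overlapped between genotypes, including Fmod, with 16.7% to 26.6% in controls against 19.0% to 21% in mutants.

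**Figure D3:**
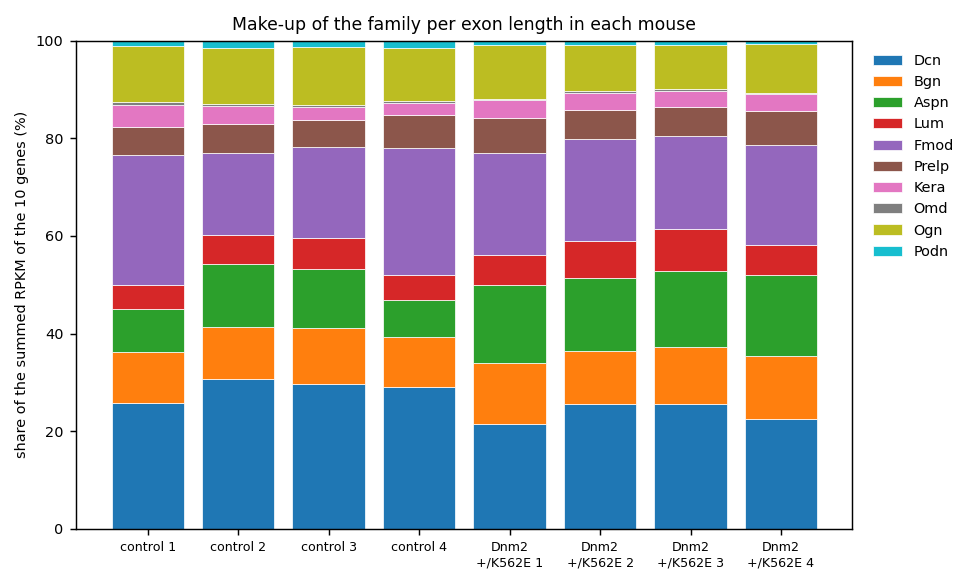
Share of each gene in the summed RPKM of the 10 members (vertical axis, percent, adding to 100) in each of the 8 mice. Aspn (green) takes 7.53% to 12.9% in controls and 14.95% to 16.6% in Dnm2 +/K562E mice, and Dcn (blue, bottom) 25.8% to 30.6% and 21.4% to 25.6%.

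A ratio of 2 genes within a library does not depend on how libraries are scaled, so each of the other 9 genes was also set against Dcn in the same mouse. Per 100 reads of Dcn, corrected for exon length, Aspn gave 34.3, 42.1, 41.2 and 25.8 reads in controls 1 to 4 and 74.0, 58.4, 61.5 and 74.0 in Dnm2 +/K562E mice 1 to 4. The difference in log2 ratio between the genotypes was 0.92 ± 0.19 (SE) and the values of the genotypes were apart. Lum gave 19.2, 19.4, 21.4 and 17.3 reads per 100 of Dcn in controls and 28.6, 30.1, 33.7 and 27.9 in mutants, a difference of 0.64 ± 0.09 (SE). For Bgn the values were 40.0, 35.2, 38.7 and 35.1 in controls and 59.0, 42.1, 45.0 and 57.5 in mutants, a difference of 0.44 ± 0.13 (SE). The ratio of Podn moved the other way, with 4.47, 5.18, 4.57 and 4.89 reads per 100 of Dcn in controls and 3.68, 3.12, 3.75 and 3.36 in mutants, a difference of -0.46 ± 0.08 (SE). The level of Podn itself rose (log2 fold change 0.53), but by less than that of Dcn (0.99).

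In these 4 ratios the genotypes did not overlap, which gave p = 0.0286 in an exact two-sided permutation test, the smallest p that 4 against 4 mice allow. After Benjamini-Hochberg adjustment over the 9 ratios it was 0.0643, so that 0 of 9 ratios passed 0.05. With this smallest p, 4 ratios without overlap could not have passed, so the adjusted values do not decide whether these ratios differed. How many other genes lie apart in their ratio to Dcn was not counted. Dcn itself rose by 0.99, against a median of 0.01 over all tested genes, so the ratio falls for a gene that rose less. Fmod, Prelp, Kera, Omd and Ogn overlapped between genotypes in their ratio to Dcn. Their differences in log2 ratio were 0.19 ± 0.23 (SE), 0.38 ± 0.16 (SE), 0.40 ± 0.27 (SE), -0.29 ± 0.20 (SE) and 0.07 ± 0.14 (SE), with exact permutation p between 0.0571 and 0.714 (two-sided, not adjusted).

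**Figure D4:**
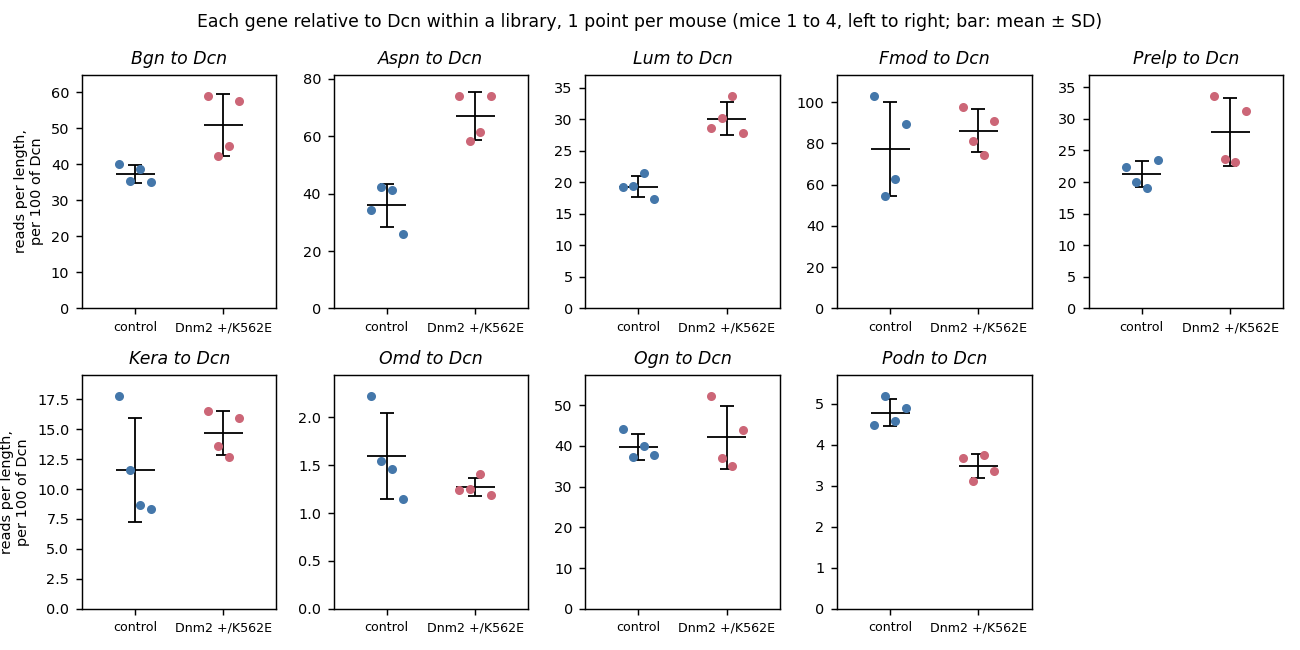
Reads of each of 9 members per 100 reads of Dcn in the same library, corrected for exon length (vertical axis, from 0), with 1 point per mouse (4 controls, blue; 4 Dnm2 +/K562E mice, red) and bars for mean ± SD. Bgn, Aspn and Lum lie higher and Podn lower in every mutant than in every control, and the other 5 overlap.

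Most of these genes lie in small clusters of the mouse genome (GRCm38). Dcn (97479609 to 97518143), Lum (97565128 to 97572703) and Kera (97606879 to 97613692) follow each other on the plus strand of chromosome 10, and Aspn (49544443 to 49567565), Omd (49582462 to 49592822) and Ogn (49608046 to 49624501) do so on chromosome 13. Prelp (133910304 to 133921414, minus strand) and Fmod (134037254 to 134048277) are neighbours on chromosome 1, Podn is on chromosome 4 (108014791 to 108096445, minus strand) and Bgn on chromosome X (73483602 to 73495933). Within the chromosome 13 cluster the changes were unequal. Aspn had the largest log2 fold change of the family (1.92), Omd, which starts 14.9 kb after its end, had one of 0.70, and Ogn one of 1.07. Per exon length, Aspn gave 0.907 ± 0.211 reads for each read of Ogn in controls (SD, n = 4) and 1.61 ± 0.146 in Dnm2 +/K562E mice (SD, n = 4), a description for which no test was made. Genes outside the family on either side of the clusters were looked at as well. Of 10 such genes, the nearest tested protein-coding genes on either side that did not overlap a member, 0 were called higher and 2 lower. The calls were made by edgeR's quasi-likelihood test, which called 12.9% of all tested genes higher and 7.85% lower. The median log2 fold change of the 10 genes was -0.08. Overlapping genes, such as Scp2 at Podn, were left out. On chromosome 10 the neighbours were distant, with Btg1 856800 bases from Dcn and Atp2b1 1300714 bases from Kera. The lower genes were Btg2, an antiproliferative gene 26893 bases from Fmod (log2 fold change -0.61), and Cpt2, a fatty acid oxidation enzyme gene 91181 bases from Podn (-0.60). Btg2 was not called without control 3 (-0.50) or without Dnm2 +/K562E mouse 2 (-0.54), nor Cpt2 without control 1 (-0.55), and scaled by library size alone neither was called (-0.40 and -0.38).

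Aspn, Omd and Ogn lie inside Cenpp, a gene for a centromere protein on the other strand, whose exons overlap them by 7 bases in Aspn and by none in Omd and Ogn. Cenpp, singled out after its values were seen, was counted at 1.37 ± 0.360 CPM (SD, n = 4) in controls and 0.674 ± 0.178 CPM (SD, n = 4) in Dnm2 +/K562E mice, a log2 fold change of -1.02 ± 0.30 (SE; BH-adjusted p = 0.0168 by edgeR). Without control 3 it was -0.82 and no longer called (BH-adjusted p = 0.0513 by edgeR). The 250 bases before the RefSeq start of the 3 genes (GRCm38.p6) are printed because these neighbours had unequal log2 fold changes. Capitals mark 4 motifs searched on both strands: the E-box CANNTG, the Smad core CAGAC, the TATA box TATAAA and the CCAAT box. All are on the plus strand of chromosome 13, at chr13:49544193-49544442 for Aspn, chr13:49582212-49582461 for Omd and chr13:49607765-49608014 for Ogn.
Aspn: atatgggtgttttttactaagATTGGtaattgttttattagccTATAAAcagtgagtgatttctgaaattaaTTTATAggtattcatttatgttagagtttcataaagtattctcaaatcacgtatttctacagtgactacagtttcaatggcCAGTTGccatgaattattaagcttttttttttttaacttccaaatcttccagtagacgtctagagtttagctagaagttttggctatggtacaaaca
Omd: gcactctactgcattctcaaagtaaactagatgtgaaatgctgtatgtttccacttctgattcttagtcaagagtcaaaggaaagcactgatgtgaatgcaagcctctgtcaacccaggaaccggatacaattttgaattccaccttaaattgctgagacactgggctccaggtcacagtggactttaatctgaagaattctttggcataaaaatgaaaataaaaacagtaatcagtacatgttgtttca
Ogn: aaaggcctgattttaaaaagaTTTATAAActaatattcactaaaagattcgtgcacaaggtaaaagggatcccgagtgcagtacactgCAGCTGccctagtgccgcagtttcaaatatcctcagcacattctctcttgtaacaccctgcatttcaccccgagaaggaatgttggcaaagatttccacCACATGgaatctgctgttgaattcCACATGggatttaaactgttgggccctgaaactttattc

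The Aspn sequence held 1 E-box, 2 matches of TATAAA and 1 of CCAAT, the Ogn sequence held 3 E-boxes and 2 matches of TATAAA that overlap each other on opposite strands, and the Omd sequence held none of the 4 motifs. Over all 32851 promoters of the same length, 66.2% held an E-box, 42.2% CAGAC, 12.4% TATAAA and 33.8% CCAAT. These matches describe letters and not binding. RefSeq promoters of this table matched 8 of the 10 members.

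Of 8 further genes of the family, 5 had enough counts to be tested. Ecm2, which lies next to Aspn on chromosome 13, rose from 57.2, 48.1, 53.1 and 60.3 CPM in controls to 142, 125, 114 and 125 CPM in Dnm2 +/K562E mice, without overlap and with a log2 fold change of 1.21 ± 0.09 (SE; BH-adjusted p = 2.78e-06 by edgeR). Tsku, whose product tsukushi binds several growth factors, rose by 1.30 from 3.02 ± 0.914 CPM (SD, n = 4). Nyx, known from the retina, was called as well (1.03) at 0.306 ± 0.0973 CPM in controls (SD, n = 4). Its call was lost when any of 6 mice was left out, namely controls 2, 3 and 4 or Dnm2 +/K562E mice 2, 3 and 4, with adjusted p between 0.0541 and 0.124 (edgeR quasi-likelihood test). Chad, a cartilage and tendon gene, was counted at 83.7, 33.9, 42.8 and 107 CPM in controls and at 82.3, 75.0, 49.9 and 53.1 CPM in Dnm2 +/K562E mice. The groups overlapped widely, and its log2 fold change was -0.04 with a 95% interval of -0.74 to 0.67, and 0.17 when scaled by library size alone. Chadl had a log2 fold change of 0.15 and 17.5% of the 31-base stretches of Chadl are found elsewhere too, mostly in L3mbtl2. Epyc, Optc and Podnl1 had too few counts to be tested, with at most 13 in any mouse.

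The enzymes that build the sugar chains did not move as one group. A core protein that is to carry chondroitin or dermatan sulfate first receives a short linker. It is made by the enzymes of Xylt1, Xylt2, B4galt7, B3galt6 and B3gat3 with the kinase of Fam20b. In this list 0 of 6 genes were called by edgeR's quasi-likelihood test, with log2 fold changes from -0.12 (B4galt7, 0.086 when scaled by library size alone) to 0.47 (Xylt1) and a median of 0.06. Xylt1 alone was called once control 4 was left out (0.75). Of 15 tested genes for chondroitin and dermatan sulfate, 7 were called higher and 1 lower, against 12.9% and 7.85% of all tested genes. The median of this list was 0.39. The called genes with the smallest p were Chpf, a chain polymerizing factor (from 20.6 ± 2.58 to 41.7 ± 5.50 CPM, SD, n = 4 each), Dsel and Dse, the epimerases that turn chondroitin into dermatan sulfate, and the sulfotransferase gene Ust. Their log2 fold changes were 1.02, 1.07, 1.07 and 1.32. The sulfotransferase gene Chst11 was at -0.01 and not called. The lower gene was Chst3, another sulfotransferase gene (-0.66), which was chosen after its values were seen and was not called without Dnm2 +/K562E mouse 1 (-0.54) or with scaling by library size alone (-0.46).

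Of 7 tested genes for keratan sulfate, 2 were called higher and 0 lower, against 12.9% and 7.85% of all tested genes. Fut8, the fucosyltransferase gene of N-glycan cores, rose from 24.4 ± 1.44 to 40.6 ± 1.61 CPM (SD, n = 4 each), a log2 fold change of 0.73. B3gnt2, which extends the poly-lactosamine chain, had a log2 fold change of 0.60, and 58.6% of its exon length lies within a gene model on the same strand that is counted as well. Without Dnm2 +/K562E mouse 3 it was 0.56 and the list held 1 call. The values of B4galt1, Chst2, Chst1, B4galt4 and St3gal3 were 0.29, 0.48, -0.27, -0.40 and -0.53, and none of these genes was called. Fibromodulin and several relatives also carry sulfated tyrosines, and of the genes for the enzymes that add them Tpst1 was at 0.45 and Tpst2 at -0.19, with 0 of 2 called. Scaled by library size alone, Tpst1 was called (0.66) and Tpst2 was at 0.018.

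Most genes for the matrix proteins that this family binds were called higher. Of 15 collagen and other matrix ligand genes, 13 were called higher and 0 lower, against 12.9% and 7.85% of all tested genes. Their median log2 fold change was 1.05, close to the value of Dcn. The smallest p-values were those of Col5a2 (1.41), Col12a1 (1.68), Fn1 (1.21) and Col3a1 (1.15), which encode fibrillar and fibril-associated collagens and fibronectin. Col2a1, the cartilage collagen, was at 0.15 and was not called. Of 11 tested genes for proteases and their helper, 5 were called higher and 0 lower, among them Mmp2 (1.44) and Mmp14 (1.06), the procollagen proteinase gene Bmp1 (0.84), which also trims the propeptide of biglycan, and its enhancer Pcolce (1.03). Adamts5, an aggrecanase gene, was at -0.21. Without control 1, 2 protease genes and 1 matrix ligand gene were called lower, and without control 3, 1 protease gene was. With the exact test of edgeR 2 protease genes were called lower, and without the filter on low counts 1 was.

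Among 16 growth factors and receptors linked to this family, 6 were called higher and 2 lower, against 12.9% and 7.85% of all tested genes. Their median was 0.52. Scaled by library size alone, 10 were called higher and 1 lower. Tlr2, a receptor that soluble biglycan activates, rose from 1.73, 1.54, 1.95 and 2.74 CPM in controls to 17.2, 11.1, 12.5 and 16.2 CPM in Dnm2 +/K562E mice. All mutants lay above all controls, and the log2 fold change was 2.84 ± 0.20 (SE; BH-adjusted p = 2.50e-06 by edgeR). The ligands Tgfb2 (1.28) and Tgfb3 (0.62), members of the TGF-beta family that decorin binds, and Cd44 (1.55), a receptor for hyaluronan, were called higher too. Tgfb3, for which 9.96% of 31-base stretches occur elsewhere, was at 0.58, just under the threshold, without control 3. Bmp4 was at 0.16 and not called. Tgfb1 (0.50) passed the adjusted p but not the fold threshold, and Tlr4 (0.30) passed neither. Both were added after their values were seen. The lower genes, chosen after their values were seen, were Mstn and Kdr. Mstn encodes myostatin and was counted at 1.52, 2.02, 0.985 and 8.80 CPM in controls and at 0.299, 0.744, 0.405 and 0.649 CPM in Dnm2 +/K562E mice. Control 4 stood far above the others, and the log2 fold change of -2.65 became -1.51 without it. Kdr, the endothelial receptor for VEGF, was at -0.64, and at -0.58, just short of the threshold, without Dnm2 +/K562E mouse 2, and it was not called with scaling by library size alone (-0.43).

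Most markers of fibroblasts and all markers of tenocytes were called higher. Of 10 fibroblast markers, 6 were called higher and 0 lower (median log2 fold change 0.67), against 12.9% and 7.85% of all tested genes. The largest values were those of Mfap5 (1.57) and Pdgfra (1.11). The 4 markers that were not called were Clec3b (0.40), Smoc2 (0.37), Col15a1 (0.15) and Ly6a, which was at -0.19 (BH-adjusted p = 0.0332 by edgeR) and at 0.019 when scaled by library size alone. Of the 31-base stretches of Ly6a, 31.9% are shared with other genes, most often with Ly6c1. The number called higher was 4 without control 2 or 3 or without Dnm2 +/K562E mouse 2 or 3. Their summed level was 664 to 958 CPM in controls and 1092 to 1297 CPM in Dnm2 +/K562E mice, and it was highest among controls in mouse 4. All 6 tenocyte markers were called higher, with a median of 1.19, and their sum was 365 to 674 CPM in controls against 2486 to 3162 CPM in Dnm2 +/K562E mice, of which Thbs4 made up most. Tnmd, the tendon membrane protein gene, stood at 84.4, 45.7, 54.2 and 67.9 CPM in controls and at 188, 173, 148 and 167 CPM in mutants, and Scx, the tendon transcription factor gene, had a log2 fold change of 1.07. Controls 1 and 4, which were high for Fmod, were also the highest controls for Tnmd and for the tenocyte sum. The same held for Mkx, Comp, Thbs4 and Cilp2, but not for Scx, at 20.1, 19.8, 23.4 and 21.7 CPM in controls 1 to 4. Among 6 bone and cartilage markers, Bglap and Matn1 were at 0 in every library, Sp7 and Ibsp had too few counts to be tested, and Acan and Sox9 were not called, with a sum of 3.43 to 14.8 CPM in controls and 3.79 to 9.49 CPM in mutants. Without control 1, 1 bone and cartilage marker was called lower.

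All 6 macrophage markers were called higher, against 12.9% of all tested genes, with a median of 1.198. Their sums were 68.1 to 125.3 CPM in controls and 146.4 to 246.2 CPM in Dnm2 +/K562E mice. Of the 31-base stretches of Itgam, 68.3% are shared with other genes. For Csf1r, 15.1% of the exon length overlaps Hmgxb3 on the other strand. The 5 endothelial markers had a median of -0.40, and none passed the fold threshold. All 5 were nevertheless lower in every mutant than in every control, against 20.5% of all tested genes. Their sums were 806 to 871 CPM in controls and 590.1 to 672 CPM in Dnm2 +/K562E mice. Of 5 Schwann cell markers none was called (median -0.01, sums of 242 to 279 CPM in controls and 236 to 285 CPM in mutants), nor any of 4 adipocyte markers (median -0.25, sums of 29.3 to 164 CPM and 50.04 to 96.3 CPM). The part of fibroblast, tendon and macrophage content in the rise of the 10 members was not tested.

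**Figure D5:**
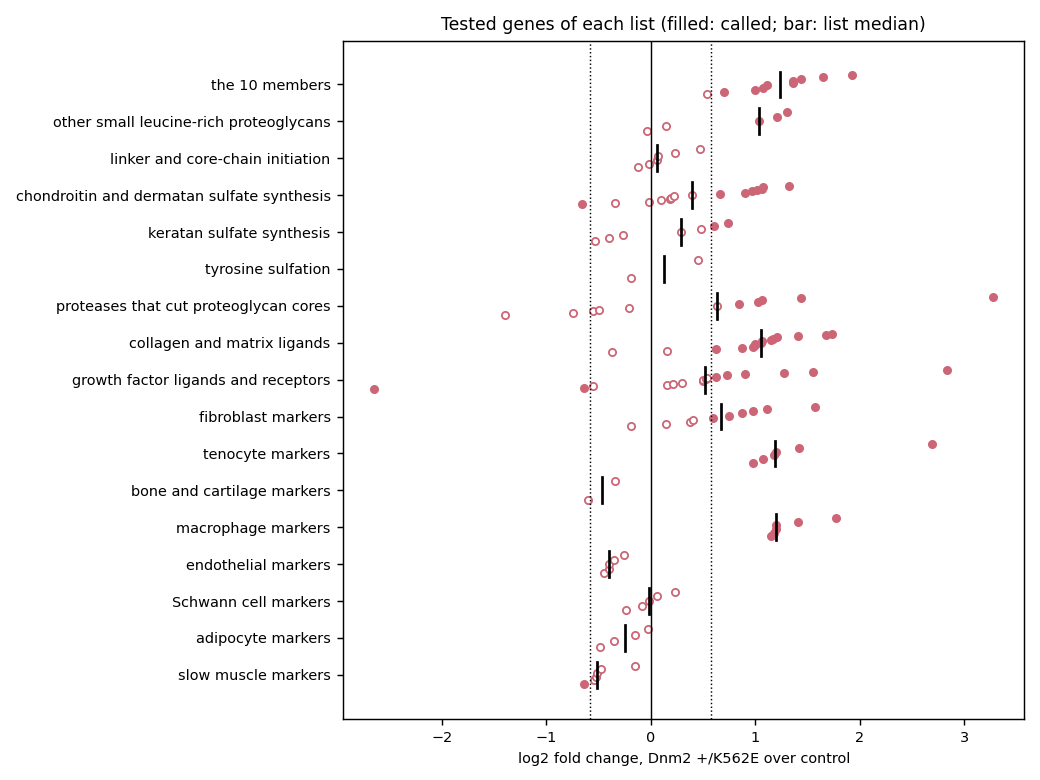
Log2 fold change (horizontal axis, Dnm2 +/K562E over control) of each tested gene by list, with filled points for called genes, black bars for list medians and dotted lines at 0.58 in either direction. The median is 1.23 for the 10 members, 1.05 for collagen and matrix ligands and 1.19 for tenocyte markers, and 0.06 for the linker enzymes.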

How the data were processed

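The analysis started from gene counts of 8 soleus libraries, 4 per genotype. The authors trimmed reads with Trimmomatic 0.33, aligned them with STAR 2.5.1b to GRCm38.p5 with Ensembl gene models, and counted them with featureCounts; reads of low mapping quality were left out, reads overlapping several genes counted for each, and multi-mapping reads at their primary alignment. The deposited values are raw counts per gene and mouse, without normalization. The paper describes poly A-enriched libraries, the labels a stranded total RNA kit, and whether counting used the strand is not given in the sources used here.

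Of 22880 identifiers, 22647 matched GENCODE M21 (same build), the source of symbols, positions and exon lengths. The filter filterByExpr of edgeR 4.0.16 (R 4.3.3; minimum count 10, total 15) kept 14001 genes, and TMM factors were 0.915 to 0.959 for controls and 1.04 to 1.10 for mutants. The quasi-likelihood test replaced the authors' exact test, which was kept as an alternative. Standard errors are those implied by the F statistic. Ratios within a library used 0.5 added to each count and exact permutation tests (scipy 1.17.1). Sequence shared between genes was counted as identical stretches of 31 bases in the transcripts. Fitting was tested on simulated data. With 4 mice per group, p-values set the difference of the genotypes against the spread between these animals. The edgeR fit moderated this spread across genes.

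The members and gene lists were chosen with earlier results of these data known. Named were all members, tested relatives, all tested genes of lists with 8 or fewer tested genes (marker lists are given by counts, with examples chosen after their values were seen), otherwise the 4 called genes with the smallest p and the uncalled gene with the largest, and the nearest tested neighbours. Other scalings, filters, tests (DESeq2 1.42.0), replicate blocks and leaving out each mouse were alternatives.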

Additional observations from a re-analysis of the deposited data

Results flagged for a closer look

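Over 70 groups of 4 mice, formed from the levels, shares and ratios of the members, the levels of their tested relatives and the family's sum, 2 held a mouse set far apart from the other 3, where chance gives about 1 in 20. The Podn level of control 4, at 34.2 CPM, lay above 23.0 to 24.6 CPM in the other controls. The Omd level of control 1, at 6.29 CPM, lay above 3.86 to 4.24 CPM in the other controls, and without this mouse the log2 fold change of Omd was 0.89.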

How the results depend on the processing

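The count of 9 members called higher, and each of the 9 calls, held with the exact test, DESeq2, median-ratio factors, library size alone, both filters, both replicate blocks and without any 1 mouse, with 9 or 10 members called. Library size alone moves the median over all genes from 0.01 to 0.22 (log2), so values under it are to be read against that shift. Under it Podn was called (0.74), as it was without control 4 (0.67) or Dnm2 +/K562E mouse 4 (0.61), with a range of 0.47 to 0.67 over the mice left out. Of the 77 tested pathway genes 36 were called higher and 3 lower, against 12.9% and 7.85% of all tested genes. The lower count became 5 with the exact test, 1 with library size alone, 7 without a fold threshold and 2 to 6 without 1 mouse. Without a fold threshold 11 growth factor and receptor genes were higher and 3 lower, 5 slow muscle and 5 endothelial markers lower, and 1 fibroblast, 1 Schwann cell and 1 keratan sulfate gene lower, and of the tyrosine sulfation genes 1 was higher. Under the same setting 2 chondroitin and dermatan sulfate genes and 1 protease gene were lower. Chst2 (0.70), Clec3b (0.61) and Smoc2 (0.58) were called with library size alone. Genes near 0 that were not called changed sign. With library size alone the log2 fold changes were 0.0015 for Adamts5, 0.19 for B3gat3, 0.086 for B4galt7, 0.17 for Chad, 0.20 for Chst11, 0.034 for Haus7, 0.019 for Ly6a and 0.018 for Tpst2. Without 1 mouse they ranged from -0.057 to 0.18 for B3galt6, -0.053 to 0.023 for B3gat3, -0.072 to 0.28 for Bmp4, -0.11 to 0.16 for Btg1, -0.26 to 0.28 for Chad, -0.080 to 0.35 for Chadl, -0.012 to 0.25 for Col15a1, -0.065 to 0.037 for Chst11 and -0.037 to 0.10 for Echdc2. The cause of these changes was not tested.

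Mice of both groups carry numbers 1 to 4 but are different animals. Same-numbered mice had correlations of their deviations from the group means between -0.21 and 0.01 by title and between -0.17 and 0.18 by description, and 0 and 2 of 8 mice correlated best with their own number. With a replicate block by either numbering 9 members were called. Chad was 0.0803 with the block by title and 0.0841 by description, and Nyx was not called under either block (adjusted p = 0.116 and 0.0912, edgeR quasi-likelihood test), nor Cenpp by description (adjusted p = 0.0557). For the ratios to Dcn a paired sign-flip test over 4 pairs cannot reach a p under 0.125, and 0 of 9 passed it, as without the pairing and with 5 added to each count.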
